A study of Mus musculus with 16 samples.

Results

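The question examined here is what a mutated IkBa changed in the gene expression of hearts that already carried a TRAF2 transgene. The 4 left ventricles of double transgenic mice were compared with the 4 of mice with the TRAF2 transgene alone, 8 of the 16 hearts of the series, and the members of both groups were chosen by their titles. TRAF2LC mice carry TRAF2 under the promoter of Myh6 (Myh6-TRAF2LC), and the double transgenic mice carry the same transgene together with the mutated IkBa under that promoter (Myh6-IkBaDN). The promoter of Myh6, the alpha myosin heavy chain gene, is active in cardiomyocytes, so both transgenes are driven in these cells and other cells of the tissue are not their intended site. The remaining 8 hearts came from littermate controls without either transgene and from mice with the IkBa transgene alone (IkBaDN), 4 each. All mice were male, the labels do not state their age, and RNA of each left ventricle was measured on 1 single-colour Illumina array. The labels do not say how litters or cages were divided, so every p-value measures the spread between these samples.

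NF-kB is a family of dimeric transcription factors held in the cytoplasm by IkB proteins. In the canonical branch the IKK complex phosphorylates IkBa, which is then degraded, and dimers with p65 (Rela) enter the nucleus, while in the non-canonical branch the kinase NIK (Map3k14) leads to processing of p100 (Nfkb2) and to nuclear dimers with RelB. TRAF2 is an adapter of TNF receptors that recruits cIAP ligases, takes part in activation of the canonical branch and restrains NIK. Forms of IkBa that resist degradation are used to hold canonical dimers in the cytoplasm, although the labels say only that the IkBa used here is mutated.

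Levels are log2 intensities after background correction and quantile normalization, and a probe was tested if the deposited detection p-value was under 0.01 on at least 4 of the 16 arrays, which held for 9449 of 25697 probes and 6902 named genes. The mean deposited signal ran from 242 to 359.5 on the TRAF2LC and from 244 to 375 on the double transgenic arrays, with 8633 to 9397 and 8491 to 9045 probes detected. TRAF2LC replicate 4 stood apart, with correlations across probes of 0.960 to 0.976 with the other 7 arrays against 0.97 to 0.990 among those 7. The first number of its description, 6155, is of unstated meaning and lies outside the 6120 to 6135 of the other 15 samples. The descriptions also give each mouse or sample a number with the letter P, of unstated meaning, in 3 runs. The TRAF2LC arrays fall 2 in the middle and 2 in the highest run, and the double transgenic arrays 1 in the lowest and 3 in the highest. All 12 markers of ventricular cardiomyocytes on the array were detected, and their summed intensity was 150962 to 162234 in TRAF2LC and 153254 to 165064 in double transgenic hearts. Results that rest on TRAF2LC replicate 4 are given with and without it.

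Adding the mutated IkBa to TRAF2 hearts went with lower levels of the NF-kB genes Relb and Tnip1 and of Myh7, the gene of the slow (beta) myosin heavy chain, and with higher levels of the potassium channel gene Kcne1, the transporter genes Slc17a7 and Slc16a6 and the smooth muscle actin gene Acta2. Of the tested probes, 281 passed the test (limma, Benjamini-Hochberg adjusted p under 0.05), 2.97% of all. Of these, 130 rose (1.38%) and 151 fell (1.60%) in double transgenic hearts, for 105 and 127 named genes. With each gene given by its brightest probe, 97 genes rose (1.41%) and 117 fell (1.70%), 214 in all (3.10%). The median log2 change of all tested genes was 0.01, and 52.0% of them were higher. These shares are the background for the counts of list members below.

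In the fit to all 16 arrays the decreases were the larger changes. Among the called probes 56 fell and 23 rose by more than 2-fold, 5 fell and 3 rose by more than 4-fold, and the median fold was 1.75 for those that fell and 1.57 for those that rose. These sizes include 16 called probes detected on 0 double transgenic and 7 detected on 0 TRAF2LC arrays. They were not computed again without TRAF2LC replicate 4. The values of the groups did not overlap for 146 of the 151 probes that fell and for 127 of the 130 that rose, where of all tested probes 4.52% were lower and 5.46% higher in this way. With the arrays scaled to equal medians in place of quantile normalization, 35 probes rose and 85 fell. With only probes detected on all 16 arrays the split turned, and 151 rose and 138 fell. With both groups alone in the fit 155 passed. Without double transgenic replicate 3, 184 probes passed, and 188 without TRAF2LC replicate 4. With the P number runs as a block 257 passed, and within the highest run, which holds 2 TRAF2LC and 3 double transgenic arrays, 85.

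**Figure D1:**
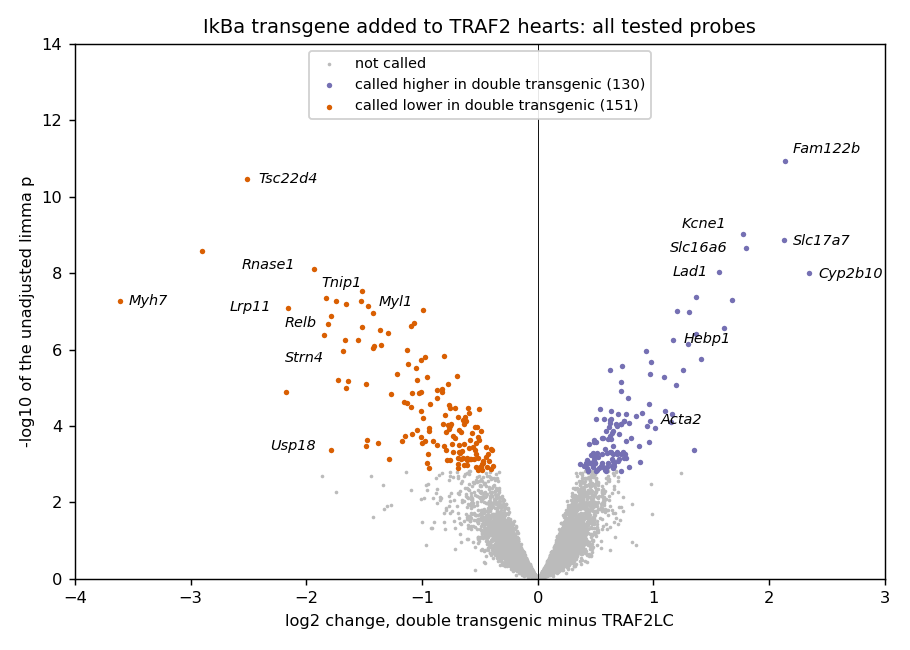
Each point is 1 of the 9449 tested probes, with the log2 change (double transgenic minus TRAF2LC) on the x axis and the negative log10 of the unadjusted limma p on the y axis. Purple points mark the 130 probes that rose and orange points the 151 that fell, and the points farthest to the left belong to Myh7, at -3.61, and those farthest to the right to Cyp2b10 and Fam122b.

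The genes of the transgenes came first. Traf2 had values of 6.29, 6.23, 6.15 and 5.76 in TRAF2LC and of 5.50, 5.91, 5.88 and 5.53 in double transgenic hearts, where 3 of 4 arrays detected it. The control values were 5.74, 5.65, 5.97 and 6.04, and TRAF2LC differed from control by 0.26 ± 0.14 on the log2 scale (limma SE, adjusted p = 0.558). The double transgenic and TRAF2LC values overlapped, and the log2 change was -0.41 ± 0.14 (limma SE, n = 4 per group, adjusted p = 0.147). Nfkbia, which encodes endogenous IkBa, had values of 8.81, 8.54, 8.58 and 8.74 in TRAF2LC and 8.49, 8.17, 8.36 and 8.26 in double transgenic hearts. All 4 double transgenic values were below the TRAF2LC values, with a log2 change of -0.35 ± 0.13 (adjusted p = 0.194). The sources used here do not say whether these probes match the transgenes, so the labels could not be checked with them. Myh6, whose promoter drives both transgenes, differed by -0.04 ± 0.09 (adjusted p = 0.883), and its dimmer probe by 0.45 ± 0.28 (adjusted p = 0.494). The probe of Nfkb2, the gene of p100, was detected on 0 arrays.

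Relb, the subunit through which the non-canonical branch acts, is itself a known NF-kB target, and it had log2 intensities of 7.84, 7.39, 7.42 and 8.13 in TRAF2LC hearts. In double transgenic hearts they were 6.07, 5.89, 6.04 and 5.64. The groups lay more than 1 log2 unit apart at their nearest values, and Relb fell 3.44-fold (log2 change -1.78 ± 0.20, adjusted p = 5.25e-05; -1.64 without TRAF2LC replicate 4, adjusted p = 2.15e-04). Its means were 7.69 in TRAF2LC hearts, 5.91 with both transgenes, 5.63 with the IkBa transgene alone and 6.49 with neither, with 2 of 4 IkBaDN arrays detecting it. Relb was the only 1 of 6 measured NF-kB subunits and inhibitors to pass the test. Of the other 5, Bcl3, an atypical IkB protein and coactivator, changed by -0.41 on the log2 scale and Rela, the p65 subunit, by -0.09, neither past the test (adjusted p = 0.16 and 0.762).

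All 10 measured genes of the canonical target list were lower in double transgenic hearts, with a median log2 change of -0.36 (-0.33 without TRAF2LC replicate 4), and 2 of them, Relb and Tnip1, fell. Tnip1 encodes a partner of the ubiquitin-editing protein A20 that limits NF-kB signalling. Its values were 10.09, 10.50, 10.27 and 11.31 in TRAF2LC and 8.74, 8.73, 8.97 and 8.76 in double transgenic hearts. The lowest TRAF2LC heart was above the highest double transgenic heart, and Tnip1 fell 3.34-fold (log2 change -1.74 ± 0.19, adjusted p = 3.25e-05). Of its 4 tested probes 3 fell, but 1 of these was detected on the 4 TRAF2LC arrays only and met the probe filter through them alone. The remaining probe, detected on 2 TRAF2LC and 0 double transgenic arrays, was not called (adjusted p = 0.42). The adhesion molecule gene Vcam1 changed by -0.49, the macrophage growth factor Csf1 by -0.37, the chemokine Cxcl1 by -0.27, the interferon regulatory factor Irf1 by -0.26, the mitochondrial superoxide dismutase Sod2 by -0.08 and the adhesion molecule Icam1 by -0.05 on the log2 scale, with adjusted p-values from 0.109 to 0.941.

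Tlr2, a receptor of bacterial lipoproteins that signals to NF-kB, had values of 7.47, 7.43, 7.43 and 9.03 in TRAF2LC and 6.23, 6.13, 5.96 and 6.41 in double transgenic hearts. TRAF2LC replicate 4 stood far above the other 3, which were nearly equal, and all 4 were above the double transgenic values. Tlr2 fell 3.15-fold (log2 change -1.66 ± 0.27, adjusted p = 0.00145), and the log2 change without replicate 4 was -1.26 (adjusted p = 3.57e-05). The means of Tlr2 were 7.84 in TRAF2LC hearts, 6.18 with both transgenes, 6.22 with the IkBa transgene alone and 6.36 with neither.

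Upstream of NF-kB, 0 of 12 measured genes of TRAF adapters, cIAP ligases, NIK, IKK subunits and TNF-family receptors passed the test, with 5 higher, 7 lower and a median log2 change of -0.04 (0.01 without TRAF2LC replicate 4). Map3k14, the gene of NIK, changed by 0.28 (adjusted p = 0.687) and the lymphotoxin beta receptor gene Ltbr by 0.49 (adjusted p = 0.309). Among 4 measured genes of the list of non-canonical targets 0 passed. Cxcl12, a chemokine and the member with the smallest p, changed by 0.29 at its brightest probe (adjusted p = 0.397), and its 3 dimmer probes were not called either.

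The kB consensus, the sequence that NF-kB dimers bind, was counted in promoters of the changed genes. In windows from 250 bases before to 50 after the annotated start (RefSeq, build GRCm38.p6), searched on both strands, it was found in 16 of 102 genes that fell and have a window (15.7%), in 5 of 79 that rose (6.33%) and in 6.43% of all tested genes. It was found in 5.14% of all 27025 genes with a window. Among the 16, Tmem176a and Tmem176b share 1 site in overlapping windows on opposite strands, so that site counts for both genes. A window of Relb was not available. The core of the interferon-stimulated response element, GAAA followed by 2 bases of any kind and GAAA again, was found in 5.88% of the genes that fell, 2.53% of those that rose and 3.66% of the tested genes. These shares describe letters in a window, without a test, and no match shows a bound site. Of the genes named by rule that fell, Tnip1, Tlr2, Lrp11, Rnase1, Mvp and Hspb6 held a kB match. The windows of the first 5 are printed because they carry both a large decrease and the motif, 5′ to 3′ in the direction of transcription, with kB matches in capitals. Matches to the palindromic core overlap, so that Tnip1 has 3 in 1 capital run of 12 bases, Tlr2 has 3 in 2 runs, Lrp11 has 2 in 1 run, and Rnase1 and Mvp have 1 each. The Tnip1 window lies at chr11:54962891-54963190 on the minus strand, that of Tlr2 at chr3:83841559-83841858 on the minus strand, that of Lrp11 at chr10:7589567-7589866 on the plus strand, that of Rnase1 at chr14:51146718-51147017 on the minus strand and that of Mvp at chr7:127014545-127014844 on the minus strand.
Tnip1: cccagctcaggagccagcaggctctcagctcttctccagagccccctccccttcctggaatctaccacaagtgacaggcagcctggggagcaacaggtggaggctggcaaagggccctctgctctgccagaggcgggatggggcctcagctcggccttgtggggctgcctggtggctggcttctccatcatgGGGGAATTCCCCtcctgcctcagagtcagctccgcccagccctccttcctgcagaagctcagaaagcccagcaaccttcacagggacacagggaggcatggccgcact
Tlr2: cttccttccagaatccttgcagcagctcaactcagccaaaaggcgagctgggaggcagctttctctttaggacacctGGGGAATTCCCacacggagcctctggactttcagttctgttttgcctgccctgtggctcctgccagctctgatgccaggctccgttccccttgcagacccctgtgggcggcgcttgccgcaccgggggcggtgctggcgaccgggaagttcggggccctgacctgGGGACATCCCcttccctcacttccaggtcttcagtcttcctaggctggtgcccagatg
Lrp11: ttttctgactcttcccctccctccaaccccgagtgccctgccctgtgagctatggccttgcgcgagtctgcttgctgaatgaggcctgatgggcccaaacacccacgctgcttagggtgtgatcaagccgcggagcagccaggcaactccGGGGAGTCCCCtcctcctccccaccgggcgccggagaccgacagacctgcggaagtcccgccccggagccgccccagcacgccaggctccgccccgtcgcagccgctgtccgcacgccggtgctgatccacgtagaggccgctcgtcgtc
Rnase1: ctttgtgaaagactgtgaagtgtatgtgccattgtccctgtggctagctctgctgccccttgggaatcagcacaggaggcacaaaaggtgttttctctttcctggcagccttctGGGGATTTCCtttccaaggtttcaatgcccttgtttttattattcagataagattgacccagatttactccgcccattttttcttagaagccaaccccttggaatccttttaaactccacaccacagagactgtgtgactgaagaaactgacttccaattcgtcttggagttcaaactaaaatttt
Mvp: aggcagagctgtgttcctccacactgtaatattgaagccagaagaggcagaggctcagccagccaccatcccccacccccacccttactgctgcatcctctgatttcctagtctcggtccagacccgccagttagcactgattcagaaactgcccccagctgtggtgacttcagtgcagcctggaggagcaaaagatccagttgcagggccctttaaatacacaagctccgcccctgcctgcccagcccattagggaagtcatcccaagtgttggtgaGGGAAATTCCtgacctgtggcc

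**Figure D2:**
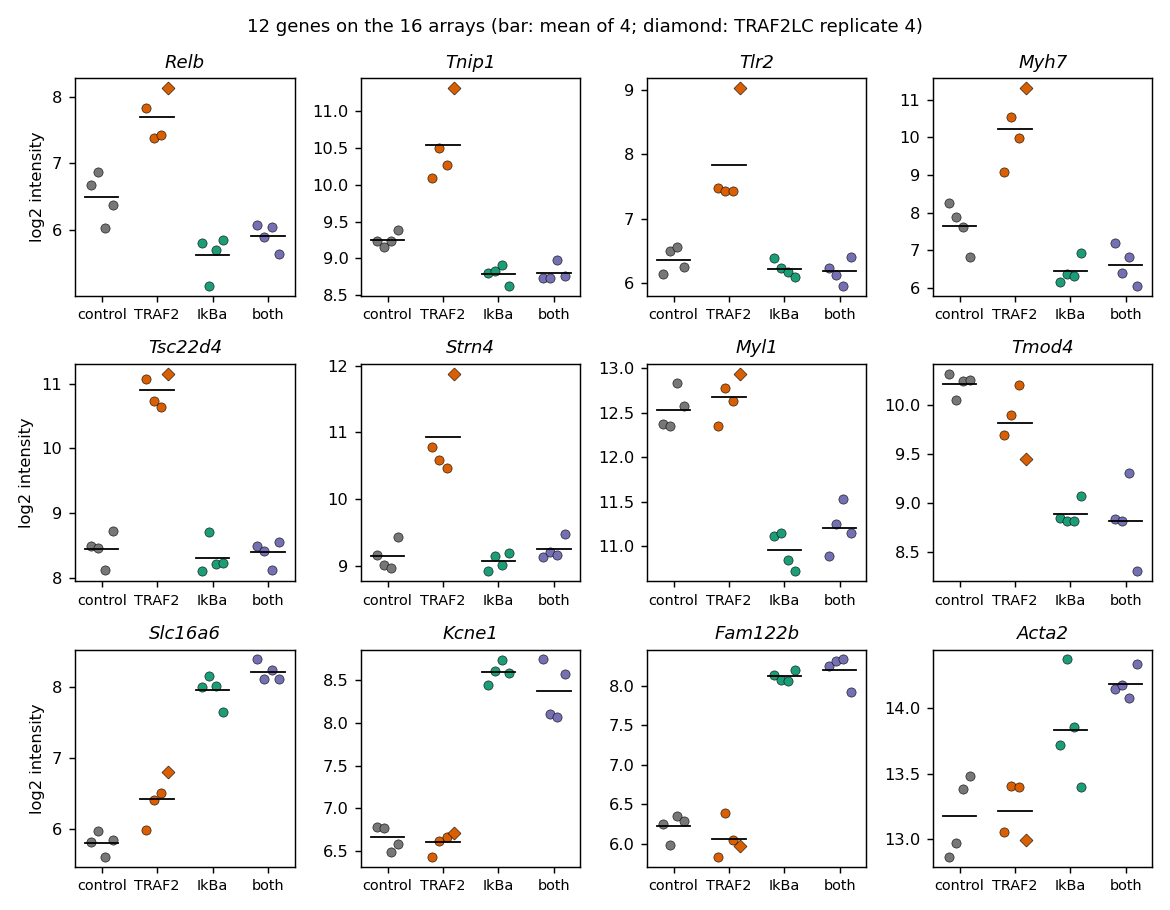
Each panel shows the log2 intensity of 1 gene (y axis) on the 4 arrays of each genotype (x axis: control, TRAF2 for TRAF2LC, IkBa for IkBaDN, both for double transgenic), with a bar at the mean and a diamond for TRAF2LC replicate 4. Relb, Tnip1, Tlr2, Myh7, Tsc22d4 and Strn4 have their highest mean in TRAF2LC hearts, Myl1 and Tmod4 are low and Slc16a6, Kcne1 and Fam122b high in both genotypes with the IkBa transgene, and the mean of Acta2 is highest in double transgenic hearts.

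Myh7 showed the largest decrease of a named gene. Its values in TRAF2LC hearts were 9.07, 10.55, 9.99 and 11.30, and in double transgenic hearts they were 7.20, 6.39, 6.82 and 6.05. The groups lay well apart, although the TRAF2LC hearts also differed widely among themselves. Myh7 fell 12.2-fold (log2 change -3.61 ± 0.39, adjusted p = 3.25e-05), and its mean in double transgenic hearts was -1.02 from control on the log2 scale (adjusted p = 0.335).

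Tsc22d4, of the TSC22 domain family of transcriptional regulators, had values of 11.08, 10.74, 10.64 and 11.15 in TRAF2LC and 8.49, 8.41, 8.12 and 8.55 in double transgenic hearts. All TRAF2LC hearts were more than 2 log2 units above every double transgenic heart, and Tsc22d4 fell 5.7-fold (log2 change -2.51 ± 0.17, adjusted p = 1.66e-07). The levels in the other genotypes were close together, 8.44 in control and 8.31 in IkBaDN hearts. Strn4, a striatin family scaffold of phosphatase complexes, stood at 10.79, 10.59, 10.46 and 11.88 against 9.13, 9.20, 9.16 and 9.48 and fell 3.22-fold (adjusted p = 2.46e-04). Here too TRAF2LC replicate 4 was the highest, and the log2 change without it was -1.37 (adjusted p = 2.37e-05).

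For 3 genes the double transgenic level was below detection on all 4 arrays, so that only a bound could be given. Rnase1, a secreted ribonuclease, had TRAF2LC values of 6.36, 6.79, 6.85 and 7.38 and was at least 2.43-fold lower (adjusted p = 1.03e-05). Lrp11, a receptor-related membrane protein, ranged from 6.08 to 7.42 in TRAF2LC hearts and was at least 2.23-fold lower (adjusted p = 3.98e-05). Tmem130, a transmembrane protein, was detected on all TRAF2LC arrays and on 0 arrays of each other genotype, and it was at least 2.07-fold lower (adjusted p = 7.66e-05). It met the probe filter only through the group where it was high, which limits what its p-value can show. Rnase1 and Lrp11 were detected outside that group on 2 and 3 control arrays only, so they too needed its arrays to be tested. In these bounds the undetected group is set to the lowest signal at which each array detects probes.

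Further decreases were found in genes of varied roles. Vac14, a scaffold of the complex that makes the endosomal lipid PI(3,5)P2, fell 3.6-fold (log2 change -1.85 ± 0.23). Its second probe was called lower too, but it was detected on the 4 TRAF2LC arrays only and met the probe filter through them alone. Phlda1, a pleckstrin homology-like domain protein, fell with a log2 change of -1.66, Syn2, a synapsin of vesicles, with -1.66, Pde1b, a calmodulin-dependent phosphodiesterase, with -1.64 and Mvp, the major vault protein, with -1.56, with adjusted p-values up to 0.00101 and no overlap between the groups. Tgfb3, a transforming growth factor, fell 2.18-fold from 8.20 to 7.07 (adjusted p = 0.00292) and was the only 1 of 25 measured genes of extracellular matrix and TGF-beta signalling to pass. Bcl2, the survival factor, fell by 1.01 on the log2 scale (adjusted p = 0.0126, 3 of 4 double transgenic arrays detecting it). With both groups alone in the fit this brighter probe did not pass (adjusted p = 0.0735). The dimmer probe of Bcl2 fell too, but it met the probe filter only through the 4 TRAF2LC arrays, the only ones to detect it. The proapoptotic BH3 gene Bcl2l11 (Bim) rose by 0.65 (adjusted p = 0.00942), but not with median scaling (adjusted p = 0.29), and its dimmer probe was not called (adjusted p = 0.421). The other 11 of 13 measured genes of apoptosis did not pass, and the median of the list was 0.01.

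The largest increases were those of Cyp2b10, Fam122b and Slc17a7. Cyp2b10, a cytochrome P450 of xenobiotic metabolism, was detected on 0 TRAF2LC arrays and had values of 6.83, 7.64, 7.48 and 8.10 in double transgenic hearts, at least 4.03-fold higher (adjusted p = 1.03e-05). Fam122b, on the X chromosome, had values of 5.83, 6.39, 6.05 and 5.97 in TRAF2LC and 8.25, 8.31, 8.33 and 7.92 in double transgenic hearts. These groups were compact and far apart, and Fam122b rose 4.4-fold (log2 change 2.14 ± 0.13, adjusted p = 1.07e-07). Slc17a7, the vesicular glutamate transporter VGLUT1, rose 4.38-fold from 8.10 to 10.23 (adjusted p = 3.15e-06).

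Slc16a6, of the monocarboxylate transporter family, had values of 5.98, 6.40, 6.50 and 6.80 in TRAF2LC and 8.39, 8.12, 8.25 and 8.12 in double transgenic hearts. It rose 3.48-fold (log2 change 1.80 ± 0.16, adjusted p = 4.20e-06). The second probe of Slc16a6 was called higher as well, but it was detected on 0 TRAF2LC and 0 control arrays. That probe met the probe filter only through hearts with the IkBa transgene. Slc17a7 and Slc16a6 were the 2 that rose among 9 measured carriers of monocarboxylates, amino acids and glutamate, of which 5 were lower and 0 fell. Of all tested genes 1.41% rose and 1.70% fell. The median log2 change of the carriers was -0.01, and 0.24 without TRAF2LC replicate 4.

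Ano10, of the anoctamin family, rose 3.2-fold (log2 change 1.68 ± 0.18, adjusted p = 3.25e-05). Cmtm8, a MARVEL domain membrane protein, rose with both of its probes and Hebp1, a heme-binding protein, with its only tested one, at log2 changes of 1.37 and 1.17 (adjusted p = 1.13e-04 and 1.47e-04). Mdk, the heparin-binding growth factor midkine, rose by 1.30 (adjusted p = 4.45e-05), while its dimmer probe changed by 0.67 ± 0.26 without passing (adjusted p = 0.202). Whrn, the scaffold protein whirlin of hair cells, rose by 1.09 (adjusted p = 8.70e-04). Lad1, an anchoring filament protein of basement membranes, and Tmem116 were each detected on 1 TRAF2LC and 4 double transgenic arrays, with log2 changes of 1.57 ± 0.15 and 1.41 ± 0.20 (adjusted p = 1.03e-05 and 3.53e-04). No TRAF2LC array detected Pth1r, the parathyroid hormone receptor, and its rise was at least 1.76-fold (adjusted p = 4.44e-05). Like Cyp2b10, Pth1r and Lad1 met the probe filter only through hearts with the IkBa transgene. Ttll1, a tubulin polyglutamylase, rose by 1.35 (adjusted p = 0.0218), and by 0.89 without TRAF2LC replicate 4 (adjusted p = 0.00258). Its call was lost without double transgenic replicate 1, without double transgenic replicate 2 or without double transgenic replicate 3 (highest adjusted p = 0.0672, without double transgenic replicate 3), and its dimmer probe did not pass (adjusted p = 0.0535).

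Of 24 measured sarcomere and Z-disc genes 3 fell, Myl1, Tmod4 and Myot, and 0 rose at their brightest probe, with a median log2 change of -0.06 (-0.03 without TRAF2LC replicate 4). Of all tested genes 1.70% fell and 1.41% rose. Myl1, an essential myosin light chain of fast skeletal muscle, had values of 12.35, 12.78, 12.63 and 12.94 in TRAF2LC and 10.89, 11.25, 11.53 and 11.15 in double transgenic hearts. It fell 2.77-fold (log2 change -1.47 ± 0.16, adjusted p = 3.89e-05). The tropomodulin gene Tmod4, whose protein covers the pointed ends of actin filaments in skeletal muscle, stood at 9.70, 9.90, 10.21 and 9.45 and 8.83, 8.81, 9.30 and 8.30. Its 3 probes fell, the brightest 2.01-fold (adjusted p = 0.00421). Myot, the Z-disc protein myotilin, fell by 1.04 (adjusted p = 0.00942) although the groups overlapped and 3 double transgenic arrays detected it, and with both groups alone in the fit it did not pass (adjusted p = 0.0633). Tpm2, the beta tropomyosin, is singled out after its values were seen: its brighter probe changed by 0.59 ± 0.17 (adjusted p = 0.0771) and its dimmer probe rose by 1.61 ± 0.20 (adjusted p = 8.89e-05).

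In the fetal and hypertrophy list, 11 of 14 measured genes were lower and 2 fell, Myh7 and Rcan1, with a median of -0.21 (-0.27 without TRAF2LC replicate 4). Of all tested genes 52.0% were higher and 1.70% fell. Rcan1, a regulator and target of calcineurin, fell by 0.54 at its brighter probe (adjusted p = 0.0252), and its dimmer one fell by 1.15 (adjusted p = 0.0122). The call of the brighter probe was lost without TRAF2LC replicate 1, without TRAF2LC replicate 4, without double transgenic replicate 1 or without double transgenic replicate 2 (highest adjusted p = 0.0893, without double transgenic replicate 1). Acta1, the skeletal alpha actin, changed by -1.01 ± 0.33 and did not pass (adjusted p = 0.128). Ankrd1, a stretch-responsive protein of the Z-disc and nucleus, also singled out after its values were seen, changed by -0.95 ± 0.28 at its brighter probe without passing (adjusted p = 0.081), and its dimmer probe fell by 1.83 (adjusted p = 3.25e-05). Nppa and Nppb, the natriuretic peptides, changed by -0.10 and -0.32.

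Potassium channel genes were among those that rose. Of 14 measured genes of potassium and sodium channels 11 were higher and 3 passed, all of them higher, with a median of 0.22 (0.12 without TRAF2LC replicate 4). Of all tested genes 52.0% were higher and 1.41% rose. Kcne1 encodes the beta subunit of the channel of the slow delayed rectifier current. Its values were 6.43, 6.62, 6.65 and 6.71 in TRAF2LC and 8.75, 8.10, 8.08 and 8.58 in double transgenic hearts. All TRAF2LC values lay close together, and the double transgenic values formed a lower and an upper pair above them. Kcne1 rose 3.42-fold (log2 change 1.77 ± 0.14, adjusted p = 2.92e-06). Its partner Kcnq1, the pore-forming subunit, changed by 0.61 (adjusted p = 0.0613), with no overlap between the groups. Kcnv2, a silent subunit that modifies Kv2 channels, rose by 1.16 (adjusted p = 0.00481, 3 TRAF2LC arrays detecting it). Kcnk3, the background channel TASK-1, rose by 0.53 (adjusted p = 0.0443), and its call was lost on leaving out any 1 of 11 single arrays (highest adjusted p = 0.15, without double transgenic replicate 3). Of 18 measured genes of calcium handling 1 passed: Camk2b, a subunit of calcium/calmodulin-dependent kinase II, fell 2.26-fold (log2 change -1.17 ± 0.25, adjusted p = 0.0146), and its call was lost without double transgenic replicate 3 (adjusted p = 0.0597).

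All 23 measured interferon-induced genes were lower in double transgenic hearts, but only Usp18 fell, and the size of the shift rested on 1 heart. Usp18, a protease that cleaves ISG15 from its targets, had values of 8.25, 7.90, 7.38 and 10.28 in TRAF2LC and 6.40, 6.70, 6.66 and 6.90 in double transgenic hearts. TRAF2LC replicate 4 was the highest by far. Usp18 fell 3.45-fold (log2 change -1.79 ± 0.41, adjusted p = 0.0215), with a log2 change of -1.18 without TRAF2LC replicate 4 (adjusted p = 0.00278), and its call was lost without double transgenic replicate 1 or without double transgenic replicate 3 (highest adjusted p = 0.0698, without double transgenic replicate 1). Its dimmer probe changed by -1.44 ± 0.39 without passing (adjusted p = 0.0613). The 23 genes had a median log2 change of -0.75, which became -0.34 on leaving out TRAF2LC replicate 4. Of the 23 genes 8 were lower with no overlap between the groups, against 4.52% of all tested probes. As a median deviation from the control mean, the list stood at 0.60, 0.74, 0.47 and 2.16 in the TRAF2LC hearts and at 0.13, 0.26, 0.01 and 0.35 in the double transgenic hearts, so all TRAF2LC hearts were above all double transgenic hearts.

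The genes of MHC class I and antigen processing did the same on a smaller scale: 11 of 11 were lower, 1 fell, and the median was -0.46 (-0.29 without TRAF2LC replicate 4). The gene that passed, Tap2, a subunit of the peptide transporter of the endoplasmic reticulum, fell 1.73-fold (log2 change -0.79 ± 0.16, adjusted p = 0.00984), but did not pass with median scaling (adjusted p = 0.119) or with both groups alone in the fit (adjusted p = 0.0568). B2m, the light chain of class I molecules and singled out after its values were seen, changed by -0.88 ± 0.24 at its brighter probe (adjusted p = 0.0636) and fell by 0.97 at its dimmer probe (adjusted p = 0.0149). Of 5 measured MHC class II genes 5 were lower and 0 passed, with a median of -0.31 (-0.02 without TRAF2LC replicate 4).

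Macrophage markers moved with these lists. Of 10 measured markers 10 were lower and 1 fell, with a median of -0.39 (-0.23 without TRAF2LC replicate 4). Their summed intensity was 6189.9 to 9607 in TRAF2LC hearts, with a maximum of 6723 without replicate 4, and 5197 to 6096 in double transgenic hearts. The defining markers Adgre1, Ccr2, Cd163 and Itgam were detected on 0 of the 16 arrays. Cx3cr1, the fractalkine receptor, fell by 0.69 (adjusted p = 0.0368), and its call was lost on leaving out any 1 of 7 single arrays (highest adjusted p = 0.119, without double transgenic replicate 1). The part of these cells in the lower interferon, MHC and Tlr2 levels was not tested. In bulk tissue, fewer cells of a type and less RNA per cell cannot be told apart.

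**Figure D3:**
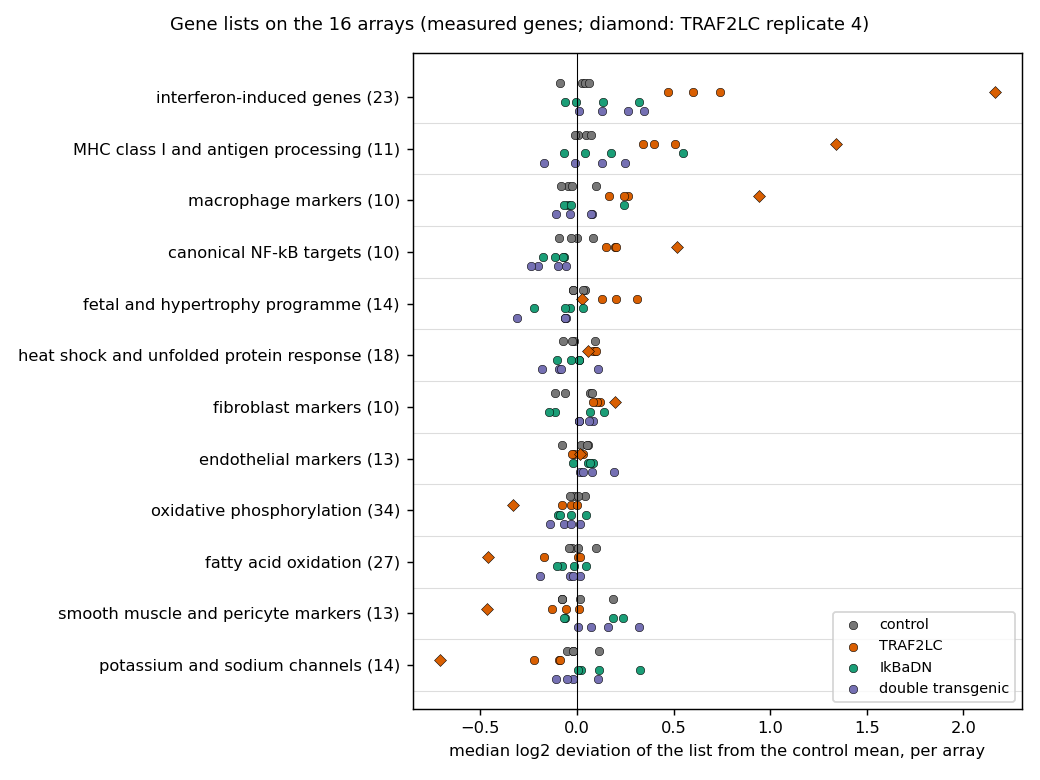
Each point is 1 array, and the x axis gives the median, over the measured genes of a list (number in brackets), of the log2 deviation from the mean of the 4 control arrays; colours mark the 4 genotypes and the diamond TRAF2LC replicate 4. In the interferon, MHC class I, macrophage and canonical NF-kB lists the 4 TRAF2LC hearts stand to the right of the double transgenic hearts, with replicate 4 farthest out, at 2.16 in the interferon list, while the endothelial and oxidative phosphorylation lists of most arrays stay near 0.

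Acta2, the smooth muscle alpha actin, rose with all 4 of its probes. At the brightest its values were 13.05, 13.41, 13.39 and 12.99 in TRAF2LC and 14.15, 14.18, 14.08 and 14.33 in double transgenic hearts. The groups did not overlap, and Acta2 rose 1.96-fold (log2 change 0.97 ± 0.19, adjusted p = 0.00638). It was the only 1 of 13 measured smooth muscle and pericyte markers to pass, although 12 were higher, with a median of 0.26 (0.20 without TRAF2LC replicate 4). The summed intensity of these markers was 26045 to 29646 in TRAF2LC and 36123 to 37418 in double transgenic hearts. This sum is of linear intensities and includes Acta2, whose own rise makes up most of the difference. It is therefore no separate sign of a rise in the other markers. Cnn1, the calponin of smooth muscle, was detected on 0 arrays. Myh11, the smooth muscle myosin heavy chain, changed by 0.23, Tagln, transgelin, by 0.40 and Mylk, the myosin light chain kinase, by 0.37 (adjusted p = 0.612, 0.16 and 0.22). The part of smooth muscle cells in the change of Acta2 was not tested.

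A CArG box, the sequence bound by serum response factor and a known element of the Acta2 gene, was searched after the values were seen. It was found in 6 of 79 genes that rose and have a window (7.59%), in 0 of 102 that fell and in 1.65% of the tested genes. Acta2 held no match in this window. The window of Srf, the gene of serum response factor itself, has 2 matches in capitals and is shown for that reason, at chr17:46556113-46556412 on the minus strand of GRCm38.p6. The dimmer probe of Srf rose by 0.59 ± 0.15 (adjusted p = 0.0499), and its brighter probe did not pass (adjusted p = 0.772).
Srf: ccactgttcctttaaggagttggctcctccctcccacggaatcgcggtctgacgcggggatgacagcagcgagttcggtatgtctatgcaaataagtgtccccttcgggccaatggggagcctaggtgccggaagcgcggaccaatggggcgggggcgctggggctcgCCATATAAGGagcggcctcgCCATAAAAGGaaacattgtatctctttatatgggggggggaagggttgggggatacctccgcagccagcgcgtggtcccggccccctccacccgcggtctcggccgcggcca

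Markers of other cell types gave few calls. Fibroblast markers were lower in 8 of 10 measured genes with 0 called and a median of -0.15 (-0.08 without TRAF2LC replicate 4), and their summed intensity was 8286 to 9216 in TRAF2LC and 6964 to 8159.8 in double transgenic hearts. Of 13 endothelial markers 9 were higher and 0 called, with a median of 0.03 and sums of 11677 to 11959.7 and 12076 to 13383. Col3a1 of the fibroblast and Fabp4 of the endothelial list were detected on 0 arrays. Of 12 atrial markers Myl1 alone passed, and the atrial genes Myl7 and Nppa changed by 0.13 and -0.10. Red cell genes had sums of 32688 to 44229.9 and 43274 to 47526 with 0 of 4 called, and among the few measured markers of lymphocytes, neutrophils, skeletal muscle, fat, nerve and mesothelium 0 passed.

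The lists of energy metabolism gave 1 call. Of 27 measured genes of fatty acid oxidation 20 were higher and 1 rose, with a median of 0.12 that was -0.01 without TRAF2LC replicate 4. Acot1, an acyl-CoA thioesterase and known target of PPARA, rose 1.72-fold with both probes (log2 change 0.79 ± 0.20, adjusted p = 0.0426), and the call of its brighter probe was lost on leaving out any 1 of 10 single arrays (highest adjusted p = 0.134, without double transgenic replicate 3). Acot1 has close paralogs, and what its probes share with them was not examined. Of 34 genes of oxidative phosphorylation 18 were higher, 16 lower and 0 called, with a median of 0.00 (-0.07 without TRAF2LC replicate 4). Of 17 genes of glucose uptake and glycolysis 7 were higher, 10 lower and 0 called, and Eno3, the muscle enolase with the smallest p among them, changed by 0.30 ± 0.10 (adjusted p = 0.122).

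The remaining lists held single calls. Rpl3, a protein of the large ribosomal subunit, fell by 0.60, and Rpl3l, its paralog of striated muscle, rose by 0.69 on the log2 scale. The values of Rpl3 were 11.85, 12.02, 11.89 and 12.07 in TRAF2LC and 11.33, 11.49, 11.37 and 11.24 in double transgenic hearts, and those of Rpl3l 13.25, 13.62, 13.66 and 12.71 and 13.97, 14.11, 14.15 and 13.77. Neither pair of groups overlapped, and the adjusted p-values were 0.00375 and 0.0342. The call of Rpl3l was lost without TRAF2LC replicate 1, without TRAF2LC replicate 4, without double transgenic replicate 1, without double transgenic replicate 2 or without double transgenic replicate 3 (highest adjusted p = 0.106, without double transgenic replicate 3). With median scaling neither passed (adjusted p = 0.383 for Rpl3 and 0.132 for Rpl3l). The other 20 of 22 measured ribosomal protein genes did not pass, and their list had a median of -0.06 (-0.04 without TRAF2LC replicate 4).

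In the list of heat shock and the unfolded protein response 14 of 18 genes were lower and 1 fell, with a median of -0.16: Hspb6, a small heat shock protein of muscle, fell by 0.59 (adjusted p = 0.00458), but did not pass with median scaling (adjusted p = 0.407). Of 12 immediate early genes Junb, a subunit of AP-1, was the 1 that passed, and it fell by 0.76 (adjusted p = 0.0322). Its call was lost without TRAF2LC replicate 4, without double transgenic replicate 2, without double transgenic replicate 3 or without double transgenic replicate 4 (highest adjusted p = 0.108, without TRAF2LC replicate 4). Of 14 cell cycle genes Cenpa, the centromeric histone, was the 1 that passed, and it fell by 0.54 (adjusted p = 0.0433), but its call was lost on leaving out any 1 of 13 single arrays (highest adjusted p = 0.115, without double transgenic replicate 4). No member of the autophagy list (13 measured), the antioxidant list (17) or the circadian list (10) passed. The smallest p of these lists belonged to Sqstm1, the autophagy receptor p62, at -0.45 ± 0.12 (adjusted p = 0.0535), Nqo1, a quinone reductase and NRF2 target, at -0.62 ± 0.20 (adjusted p = 0.121), and Bhlhe40, a transcriptional repressor of the clock, at -0.98 ± 0.32 (adjusted p = 0.126).

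The same IkBa transgene had also been studied without TRAF2, in IkBaDN against control hearts. These 8 arrays enter the comparison above through the shared normalization, probe filter and estimate of the spread, though not through its group means. There 42 of the 9449 probes passed, 0.444%. Of the 281 probes called with TRAF2 present, 249 (88.6%) had the same sign without it, against 58.2% of all tested probes. The overlap of calls was 36 probes, 12.8% of the 281 and 85.7% of the 42, and all 36 had the same sign. Across the 281 probes Pearson's r between both log2 changes was 0.758, and 0.353 across all 9449, as a description across probes of which many share arrays and genes. With TRAF2 present the change was larger in 261 of the 281, which were chosen for being large there.

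Genes called in both comparisons are set side by side on the log2 scale. Kcne1 changed by 1.77 with TRAF2 and by 1.94 without it, Fam122b by 2.14 and 1.90, Slc16a6 by 1.80 and 2.15, Hebp1 by 1.17 and 1.24 Mdk by 1.30 and 1.26, and Slc17a7 by 2.13 and 1.54. Of the decreases, Myl1 changed by -1.47 and -1.58, Camk2b by -1.17 and -1.22, Myot by -1.04 and -1.07 and Tmod4 by -1.01 and -1.33. The level of Kcne1 was 6.60 in TRAF2LC hearts, 8.38 with both transgenes, 8.60 with the IkBa transgene alone and 6.65 with neither, and that of Myl1 12.68 in TRAF2LC hearts, 11.20 with both transgenes, 10.96 with the IkBa transgene alone and 12.53 with neither. Cyp2b10, Pth1r and Lad1 were each detected on all IkBaDN arrays and on at most 1 control array, and passed in both comparisons. These genes met the probe filter only through hearts with the IkBa transgene, the high side of both comparisons. That limits what passing in both can show. Of the 36 probes 20 changed more with TRAF2 present, and 5 had an unadjusted interaction p under 0.05, among them those of Slc17a7, Cyp2b10 and Pth1r, though none passed after adjustment (adjusted p = 0.773, 0.773 and 0.679). All 3 of these changed more with TRAF2 present.

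**Figure D4:**
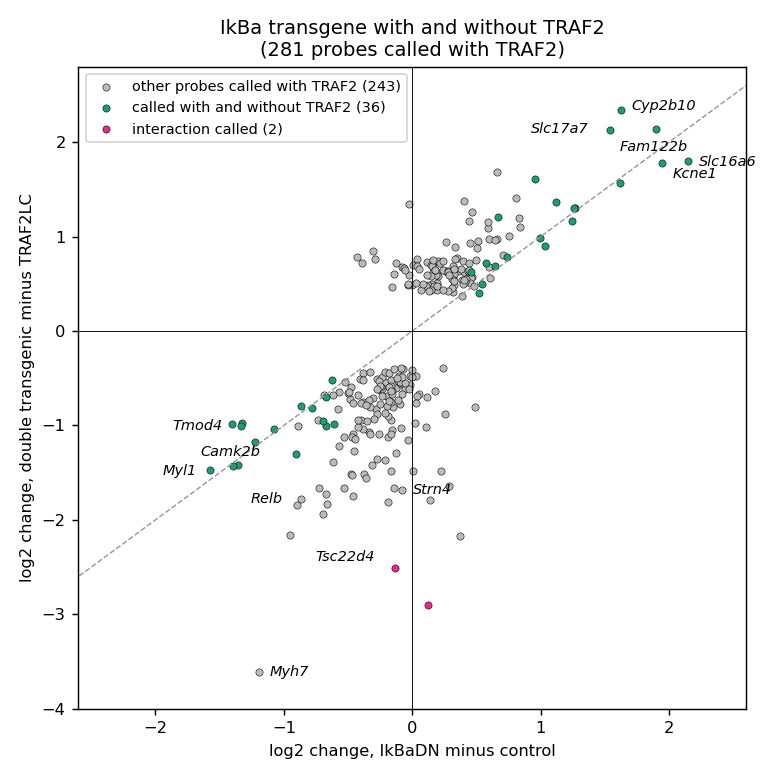
Each point is 1 of the 281 probes called in double transgenic against TRAF2LC hearts, with the log2 change of IkBaDN minus control on the x axis and of double transgenic minus TRAF2LC on the y axis; the dashed line marks equal changes. The 36 probes called in both comparisons (green) lie on both sides of this line with the same sign in both, and Myh7, Strn4 and the 2 probes with a called interaction (pink) lie far below it.

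Other genes that fell were above control on average in TRAF2LC hearts and were not called in IkBaDN against control hearts. The comparisons of TRAF2LC and of double transgenic hearts with control share arrays with the main comparison, so their values are only set side by side. Tsc22d4 was 2.46 from control in TRAF2LC hearts, -0.05 in double transgenic and -0.14 in IkBaDN hearts on the log2 scale. Strn4 was 1.79, 0.10 and -0.08 from control in the same order, Tlr2 1.48, -0.18 and -0.14, Pde1b 1.88, 0.23 and 0.28, and Tgfb3 1.14, 0.01 and -0.19. Relb was 1.20, -0.58 and -0.86 from control, and Myh7 2.59, -1.02 and -1.19. Both were thus also below control in IkBaDN hearts, without passing (limma, adjusted p = 0.0919 and 0.32). Of all these genes only Tsc22d4 passed the test of the interaction given below. In the increases Acot1 was -1.14, -0.35 and -0.43, and Ttll1 -1.33, 0.02 and -0.02.

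Whether the transgene changed a gene differently with and without TRAF2 was tested as the interaction of the transgenes, and 2 probes passed (0.0212%). Both fell with TRAF2 present. Without it neither was called, with log2 changes of -0.14 for Tsc22d4 and 0.12 for the other probe (limma, adjusted p = 0.934 and 0.964). For Tsc22d4 the difference of the changes was -2.38 ± 0.23 on the log2 scale (limma, adjusted p = 1.42e-04). The other probe has no gene symbol in the table used here and is described because so few passed: its interaction was -3.02 ± 0.36 (adjusted p = 0.00101), and its mean was 9.54 in TRAF2LC hearts, 6.64 with both transgenes, 6.13 with the IkBa transgene alone and 6.01 with neither. At an unadjusted p under 0.05 there were 593 probes, 149 of them among the 281.

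Myh7, with the largest decrease, had an interaction of -2.42 ± 0.55 that did not pass (adjusted p = 0.167), and Relb one of -0.92 ± 0.29 (adjusted p = 0.562). On leaving out TRAF2LC replicate 4, 11 probes passed. They included Strn4 (-1.29, adjusted p = 0.00992), Tnip1 (-1.03, adjusted p = 0.0153), Tlr2 (-1.12, adjusted p = 0.0153), Pde1b (-1.64, adjusted p = 0.0302) and Tmem130 (adjusted p = 0.0427). Tmem130 met the probe filter only through the TRAF2LC arrays, which limits what its p-value can show here too. Dlg2, which encodes a scaffold of synapses and cell junctions, was the 1 probe with an interaction in the positive direction (adjusted p = 0.00992).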

How the data were processed

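Total RNA of the left ventricle of 16 male mice was hybridized to Illumina arrays, per the labels. The deposited table gives 1 intensity per probe and array, with background already subtracted (values below 0 occur), and a detection p-value per probe and array, both made by the authors. The second deposited table holds the same intensity values scaled to equal array means, and served as an alternative. BeadStudio and GenomeStudio are the tools listed in the submitters' processing notes, without their steps.

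The background correction was nec of limma 3.58.1 (R 4.3.3, offset 16, background from the detection p-values), followed by a log2 transform and then quantile normalization. A single linear model for the means of the 4 genotypes was fitted to the 16 arrays, and its variances were moderated by eBayes (12 residual degrees of freedom). Two-sided p-values were adjusted by Benjamini-Hochberg over all 9449 tested probes, 517 of them without a symbol. The number of arrays limits the precision. The scripts were tested on simulated data.

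Genes named are Traf2, Nfkbia, Myh6, Relb and Nfkb2, the called genes without overlap of the groups that had the 15 highest and the 15 lowest log2 changes, up to 5 each way in the interaction, and up to 4 called members of a list or, in a list without calls, its member of smallest p. For each gene the brightest of its tested probes is used. Predicted genes were counted, not named. The groups, lists and tests were chosen with earlier results of these data known. Same-numbered double transgenic and TRAF2LC arrays deviated together from their group means (correlations of 0.309, 0.249, 0.305 and 0.254, against -0.355 to 0.372 in the 12 pairs of other numbers), so the replicate number was also fitted as a block. Alternatives changed the background, scaling, filter, fit, weights and blocks and left out single arrays.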

Additional observations from a re-analysis of the deposited data

Results flagged for a closer look

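In 196 sets of 4 arrays, the gap between the most extreme array and its nearest neighbour was compared with the range of the set, and 16 passed the limit for an array that stands apart, where chance gives about 1 in 20. TRAF2LC replicate 4 was that array in 9 of them. It stood above the other 3 TRAF2LC hearts for Tlr2, the lipoprotein receptor (gap 0.970 of the range, 9.03 against 7.43 to 7.47), Junb (0.910), Sqstm1 (0.889) and Lum, the collagen-binding protein lumican (0.890). It also stood above them in the list medians of the canonical NF-kB targets (0.864), the interferon-induced genes (0.843, 2.16 against 0.47 to 0.74), MHC class I (0.834) and the macrophage markers (0.871), and below them in the atrial markers (0.851).

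Double transgenic replicate 1 was above the other 3 for Junb (0.938), Sqstm1 (0.902) and Cmtm8 (0.855) and below them in the fetal list (0.968). Double transgenic replicate 3 was above the others for Tnip1 (0.884) and below them for Camk2b (0.856), and replicate 2 was above them for Kcnv2 (0.843).

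The effect of the IkBa transgene differed between hearts with and without TRAF2 for Tsc22d4 (interaction -2.38 on the log2 scale) and for 1 probe without a symbol (-3.02).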

How the results depend on the processing

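The 281 probes called in double transgenic against TRAF2LC hearts became 120 with median scaling, 155 with both groups alone in the fit and 85 within the highest P number run, and lay between 242 and 397 in the other alternatives that kept all arrays. On leaving out 1 array the count ran from 184 to 305, the lowest without double transgenic replicate 3. With the replicate block it was 320, of which 257 were among the 281, and 1 named call, Cx3cr1, was lost. The interaction, 2 probes, gave 4 without background correction, 4 with median scaling, 5 on the authors' scaled values, 18 with array weights, 4 with the replicate block and 5 with the column sets of the deposited table fitted as a block. On leaving out 1 array it gave 2 to 11. The 42 probes of IkBaDN against control became 18 with median scaling, 24 with both groups alone and 65 with array weights, and 21 to 45 on leaving out 1 array. The cause of these changes was not tested, except that the fits of both groups alone or within the run hold fewer arrays. Of 48 named calls 48 kept their sign in all alternatives, 38 passed without any single array and 32 in all alternatives other than within the run. Within the run 27 passed. Median scaling ended 11 named calls (Acot1, Bcl2l11, Cenpa, Cx3cr1, Hspb6, Junb, Kcnk3, Rcan1, Rpl3, Rpl3l and Tap2), both groups alone in the fit 11 (Acot1, Bcl2, Cenpa, Junb, Kcnk3, Myot, Rcan1, Rpl3l, Tap2, Ttll1 and Usp18) and the P number runs as a block 9 (Acot1, Camk2b, Cenpa, Cx3cr1, Kcnk3, Rcan1, Rpl3l, Ttll1 and Usp18). The split of 130 higher and 151 lower turned to 151 and 138 with probes detected on all 16 arrays. Without TRAF2LC replicate 4 the list medians of fatty acid oxidation (0.12 to -0.01), atrial markers (0.13 to -0.07), carriers (-0.01 to 0.24) and TRAF adapters (-0.04 to 0.01) changed sign, among others near 0. Genes near the detection limit are given by how many arrays detected them, and 16 called probes were detected on 0 double transgenic and 7 on 0 TRAF2LC arrays.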

Other observations

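Further genes past the test, outside the rule for named genes and chosen after their values were seen, are given here as values. Cyld and Otulin encode deubiquitinases that remove the ubiquitin chains on which NF-kB signalling depends. Cyld fell by 0.76 on the log2 scale (limma, adjusted p = 0.00782), from a mean of 8.41 in TRAF2LC to 7.66 in double transgenic hearts. Otulin fell by 0.87 (adjusted p = 0.0176), from 9.80 to 8.93. Neither gene had overlapping groups, and the promoter window of Cyld holds a kB match.

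Tnnt1, the slow skeletal troponin T, fell by 1.01 (adjusted p = 0.00173) and Lrrc10, a cardiac leucine-rich repeat protein, by 0.87 (adjusted p = 0.0016). Plcg2, a phospholipase C of immune cell signalling, fell by 1.35 (adjusted p = 1.85e-04). Tmem176a and Tmem176b, which neighbour each other and encode related membrane proteins, fell by 1.48 and 1.48 (adjusted p = 0.0144 and 0.0012). Of the increases, Nr1h3, the nuclear receptor LXR alpha, rose by 0.72 (adjusted p = 0.00105) and Gnb3, a G protein beta subunit, by 0.91 (adjusted p = 0.00466).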
